A study of Saccharomyces cerevisiae with 6 samples.

Results

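Nucleosomes of budding yeast that had spent 3 h in dextrose with histone H3 synthesis switched off were compared with nucleosomes of wildtype yeast that had spent the same 3 h in dextrose with H3 synthesis on. The tested cells were of the H3 shutoff strain DCB200.1 (n = 2 libraries), in which the H3 gene HHT1 is deleted and the other H3 gene, HHT2, is driven by the GAL1 promoter. That promoter is active in galactose and silent in dextrose. The wildtype cells were of strain YEF473A (n = 1 library), which keeps both H3 genes. All cultures grew in medium with 2% galactose and were moved by filtration to medium with 2% dextrose. H3 shutoff (n = 2) and wildtype (n = 1) libraries taken at 0 h, just after that move, gave the difference between the strains before H3 was depleted. According to the study, H3 shutoff cells replicate their DNA in dextrose and then stop as large-budded cells. Cell cycle stage and H3 supply therefore cannot be told apart in this comparison.

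A nucleosome is DNA wrapped around an octamer of histones that holds a pair of H3 molecules, and new H3 is needed in every S phase to cover the daughter chromosomes. Yeast genes share a layout in which a stretch with few nucleosomes lies just before the transcription start, a strongly placed nucleosome (+1) lies just after it, and further nucleosomes follow at a regular distance with less and less precision. Micrococcal nuclease cuts the linkers between nucleosomes, so the centre of a protected fragment marks a nucleosome's centre, or dyad. Only a single end of each fragment was read here, so its centre was placed from the library's mean fragment length.

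The nucleosomes compared were those listed for the wildtype 3 h library with more than 5 read centers within 50 bp of the dyad, which kept 51281 of the 51938 listed. Read centers of every library were counted within 50 bp of these same dyads. Each library held 5000001 reads, so the counts give the share of a library's reads at a site, and a decrease of the same size at every site could not be seen. The sites came from the wildtype 3 h library itself, which favours it in count and in sharpness, and wildtype 0 h serves as the measure of that advantage. Reads had been extended to a shorter length in both H3 shutoff 3 h libraries (158 bp in replicate 1) than in wildtype 3 h (174 bp). Fewer of their reads repeated an interval already seen: 59.5% and 64.5% were distinct in H3 shutoff 3 h, against 46.2% in wildtype 3 h. According to the study, chromatin was more sensitive to the nuclease after H3 depletion, with more smearing on gels. The study adjusted the nuclease concentration. The part that digestion, these lengths and these repeats play in the counts and spread of read centers was not tested. H3 shutoff 0 h replicate 1 stood apart from the other 0 h libraries in promoters, with a median log2 ratio to wildtype 0 h of 0.44 over promoters, against -0.02 for replicate 2. With 1 wildtype library, wildtype values have no replicate error, and an exact permutation test over 2 and 1 libraries cannot go below 1 in 3, so summary values are given without a p-value.

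H3 shutoff cells had fewer read centers at wildtype nucleosome sites and more between them. Of all read centers, 52.9% and 53.9% lay within 50 bp of a wildtype dyad in the H3 shutoff 3 h libraries, against 72.2% in wildtype 3 h. The difference was -18.8 ± 0.707 percentage points (SD, n = 2). It was -9.98 points with 73 bp on either side and -12.4 points when identical intervals were counted once. At 0 h the shares were 63.8% and 65.3% in H3 shutoff and 69.3% in wildtype, so both strains were closer to each other then. The contrast was sharper at the centre itself, with 16.8% and 18.2% of read centers within 10 bp of a dyad in H3 shutoff 3 h, against 35.5% in wildtype 3 h. Averaged over all sites, density at the dyad was 1.71 and 1.84 times the genome mean in H3 shutoff 3 h, against 3.45 times in wildtype 3 h. In the linkers, 60 to 120 bp away, the lowest density was 0.831 and 0.807 times the mean in H3 shutoff 3 h, against 0.348 in wildtype 3 h. Both H3 shutoff 3 h libraries thus had lower peaks and higher troughs than every other library, including both H3 shutoff 0 h libraries, at 2.72 and 2.72 for the dyad and 0.552 and 0.511 for the linker.

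**Figure D1:**
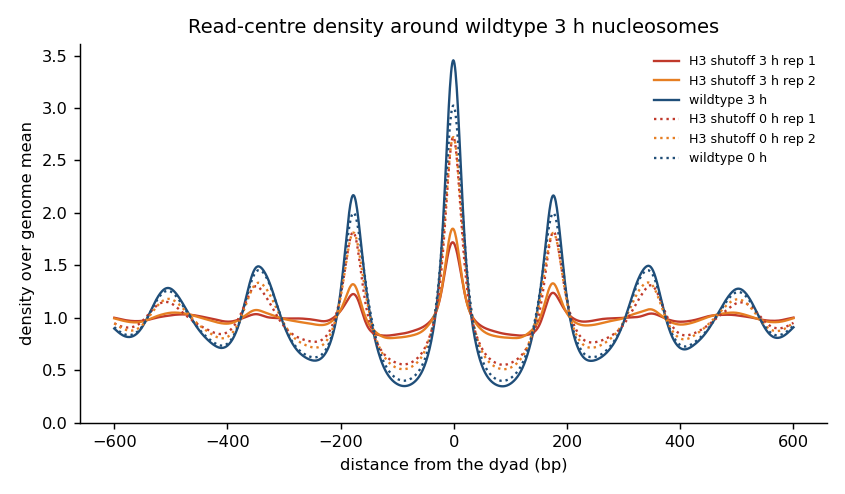
Mean read-center density (times the genome mean) against distance in bp from the 51281 wildtype 3 h dyads, one line per library, solid for 3 h and dotted for 0 h. The solid H3 shutoff lines peak at 1.71 and 1.84 and the solid wildtype line at 3.45, while the troughs beside the central peak reach 0.831 and 0.807 in H3 shutoff 3 h and 0.348 in wildtype 3 h.

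The typical nucleosome held 48 and 49 read centers in H3 shutoff 3 h, against 57 in wildtype 3 h (medians). The 0 h medians were 51 and 56 in H3 shutoff and 57 in wildtype. The median log2 ratio to wildtype 3 h was -0.34 and -0.31 (mean -0.33 ± 0.021, SD, n = 2, 1 read added to each count). Counted over a wider 73 bp on either side, the mean of those medians was -0.09. The upper end of the range moved and the lower end did not: the upper quartile was 63 and 64 in H3 shutoff 3 h, against 90 in wildtype 3 h, and the lower quartile was 35 and 36, against 35. Occupancy therefore varied less from nucleosome to nucleosome, with a coefficient of variation of 0.632 and 0.614 in H3 shutoff 3 h, against 0.777 in wildtype 3 h. It was 0.767 and 0.712 in H3 shutoff 0 h and 0.751 in wildtype 0 h.

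The size of the decrease went with the number of read centers a nucleosome held in wildtype cells. Nucleosomes were ranked by wildtype 0 h counts, a library in neither 3 h group, and split into deciles. In the emptiest decile the median was 25 and 25 read centers in H3 shutoff 3 h, against 18 in wildtype 3 h, a median log2 ratio of 0.34 and 0.35. In the second decile it was 36 and 35, against 29. The sign turned between the third and the fourth decile. In the fullest decile the median was 76 and 81 read centers in H3 shutoff 3 h, against 160 in wildtype 3 h, a median log2 ratio of -1.08 and -0.99. At 0 h the ratios were 0.61 and 0.26 in the emptiest decile and -0.28 and -0.22 in the fullest, although these share the wildtype 0 h counts used for the ranking. Because of those shared counts, the 0 h ratios cannot tell whether the excess in the emptiest decile was particular to 3 h. Against wildtype 3 h, the fullest decile was lower in both replicates.

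**Figure D2:**
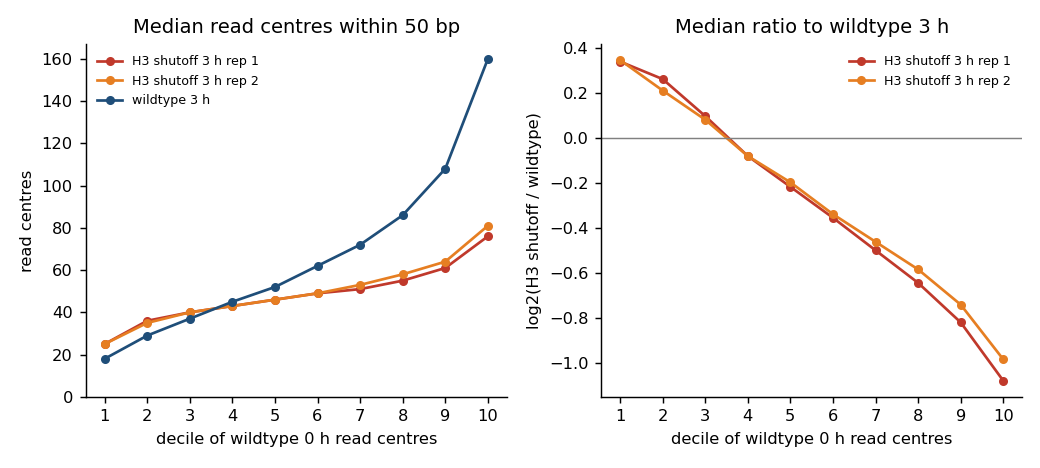
Left, median read centers within 50 bp of the dyad for each decile of wildtype 0 h read centers, in both H3 shutoff 3 h libraries and in wildtype 3 h. Right, the median log2 ratio to wildtype 3 h, with a line at 0: both H3 shutoff libraries go from 0.34 and 0.35 in decile 1 to -1.08 and -0.99 in decile 10.

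Precision of placement in wildtype went with the fall as well. Among the fullest tercile of nucleosomes by wildtype 0 h count, the sharpest tercile by wildtype 0 h spread had a median log2 ratio of -0.93 and -0.85, and the fuzziest tercile had -0.52 and -0.48. Their wildtype 3 h medians were 116 and 95 read centers, so depth was not equal between them. With 73 bp on either side the same nucleosomes gave -0.63 and -0.59 for the sharpest and -0.40 and -0.34 for the fuzziest. Nucleosomes that were both in the emptiest and in the fuzziest tercile had 0.32 and 0.30. Position along the chromosome made less difference. The median log2 ratio lay between -0.43 and -0.29 on each of the 16 chromosomes in replicate 1 and between -0.41 and -0.26 in replicate 2. It was -0.54 and -0.45 at 10 to 20 kb from a chromosome end, against -0.33 and -0.30 beyond 50 kb.

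Single nucleosomes were classed with a binomial test of the kind the study used between times, applied here to the read centers of 1 H3 shutoff library against wildtype 3 h at the same dyads, with Bonferroni correction and a corrected p under 0.01. This test compares libraries, not conditions, its error is counting error only, and both pairs share the wildtype library. Replicate 1 had 5052 lower and 431 higher nucleosomes, and replicate 2 had 3874 lower and 214 higher. Of the 51281 tested, 3110 (6.06%) were lower in both and 98 (0.191%) were higher in both, and 0 had opposite classes. With TMM-scaled totals, which set the bulk of nucleosomes to no change, 940 were lower and 413 were higher in both, so this split depends on the scaling. Without regard to size, 57.9% of nucleosomes lay below wildtype 3 h in both H3 shutoff libraries and 26.0% lay above it in both. Against wildtype 0 h, H3 shutoff 0 h replicate 1 had 320 lower and 698 higher nucleosomes, and replicate 2 had 13 lower and 9 higher. The same test at 0 h put 8 nucleosomes lower and 4 higher in both H3 shutoff libraries. It called 80 lower and 27 higher between the H3 shutoff 3 h replicates. Between wildtype 3 h and wildtype 0 h it called 95 lower and 512 higher. When each identical interval was counted once, 0 nucleosomes were lower and 0 were higher in both.

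The nucleosomes lower in both were full and sharp in wildtype. Their median was 65 and 71 read centers in H3 shutoff 3 h, against 178 in wildtype 3 h. At 0 h it was 127 and 130 in H3 shutoff and 148 in wildtype. The fullest decile by wildtype 0 h counts contained 2131 of them, which is 41.9% of that decile, and the ninth contained 584 (11.6%). In the emptiest decile 1 nucleosome (0.0189%) was in the class, although so few reads leave little room to call a decrease. The 98 nucleosomes higher in both had a median of 88 and 84 read centers in H3 shutoff 3 h, against 21 in wildtype 3 h. At 0 h it was 41.5 and 44.5 in H3 shutoff and 30 in wildtype, so H3 shutoff was above wildtype at both times. Both classes were picked by this same 3 h contrast, so their 3 h medians describe them and test nothing. Of the 98, 10.2% flanked a wide gap of 350 to 600 bp in the wildtype list, against 2.69% of all nucleosomes compared, and 8.16% lay within 10 kb of a chromosome end, against 2.49%.

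The largest decreases and increases were followed one by one (12 in each direction, positions in sacCer1). They were chosen for the size of this very ratio, so their values describe them and test nothing. The 12 lower ones ranged over 8 to 81 and 14 to 88 read centers in H3 shutoff 3 h, against 66 to 450 in wildtype 3 h. The fullest, at chr4:1075080-1075254, held 69 and 88 read centers in H3 shutoff 3 h, against 450 in wildtype 3 h. It was full in all 3 libraries at 0 h, with 344 and 315 in H3 shutoff and 293 in wildtype. Its read centers spread with an SD of 26.3 and 29.2 bp in H3 shutoff 3 h, against 9.43 bp in wildtype 3 h.

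Inside RPC37, which encodes a subunit of RNA polymerase III, the nucleosome at chr11:487686-487860, 397 bp from the start, held 40 and 40 read centers in H3 shutoff 3 h, against 195 in wildtype 3 h. Here wildtype itself differed between times, with 101 read centers at 0 h. In NCE101, known for a role in secretion of proteins without a signal sequence, the nucleosome at chr10:50171-50345 held 56 and 55 read centers in H3 shutoff 3 h, against 247 in wildtype 3 h. A nucleosome inside HXT9, a gene of the hexose transporter family, held 31 and 35, against 150. HXT9 has near-identical relatives between which aligned reads could be split, so that value is uncertain.

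The 12 higher ones ranged over 43 to 105 and 47 to 108 read centers in H3 shutoff 3 h, against 6 to 17 in wildtype 3 h. Inside TAF9, a subunit of the transcription complexes TFIID and SAGA, the nucleosome at chr13:743106-743280 held 82 and 74 read centers in H3 shutoff 3 h, against 8 in wildtype 3 h. It held 34 and 39 in H3 shutoff 0 h and 16 in wildtype 0 h, so H3 shutoff was above wildtype at both times. Inside YEF3, which encodes a translation elongation factor, the nucleosome at chr12:637952-638126 held 70 and 47 read centers in H3 shutoff 3 h, against 6 in wildtype 3 h. In UTP10, which encodes a factor for processing of ribosomal RNA, a nucleosome 507 bp from the start held 60 and 84, against 9. Just before the start of TMA23, a gene of ribosome biogenesis, a nucleosome held 43 and 47, against 6. That site already had 44 read centers in H3 shutoff 0 h replicate 1 and 23 in replicate 2, against 18 in wildtype 0 h. The highest counts of the 12 were at chr9:207414-207588, with 105 and 108 in H3 shutoff 3 h, against 17 in wildtype 3 h.

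Counts were also fitted across all nucleosomes with edgeR's quasi-likelihood test with Benjamini-Hochberg adjustment, which takes the spread from the H3 shutoff replicates and assumes that wildtype varies like them. With TMM scaling, which sets the bulk of nucleosomes to no change (median log2 change 0.02), 10751 of 50936 (21.1%) passed an adjusted p of 0.05, of which 4820 (9.46%) were lower and 5931 (11.6%) were higher. At an unadjusted p under 0.05 there were 8287 lower (16.3%) and 9647 higher (18.9%). With library totals the median log2 change was -0.32, and the split depended on this shift. No nucleosome passed with library totals, although 15854 had an unadjusted p under 0.05. There, 1648 sites (3.21%) had equal counts in both H3 shutoff libraries and so no spread at all. Leaving those sites out, a choice made after seeing the data, 9754 were lower and 1997 were higher. DESeq2 called 262 lower and 26 higher. Fits of all other libraries without H3 shutoff 3 h replicate 1 or without replicate 2 had a median log2 change of -0.009 and -0.012. These fits hold 1 H3 shutoff 3 h library and take the spread from the H3 shutoff 0 h libraries. They therefore cannot show on which 3 h library a single call rests. The same edgeR test at 0 h called 0 nucleosomes, with 1204 at an unadjusted p under 0.05. The difference between the strain differences at 3 h and at 0 h called 0, with 5837 at an unadjusted p under 0.05. According to the study's methods the later sample of a replicate came from the same culture as the earlier one. With each culture as a replicate block, a fit added after seeing the data, that difference called 1 nucleosome, as lower, with 5117 at an unadjusted p under 0.05.

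Nucleosomes of H3 shutoff cells were fuzzier. Within 73 bp of the wildtype dyad, the median SD of read centers was 36.6 and 36.4 bp in H3 shutoff 3 h, against 26.4 bp in wildtype 3 h, a difference of 10.1 ± 0.172 bp (SD, n = 2). It was 31.7 and 30.4 bp in H3 shutoff 0 h and 27.3 bp in wildtype 0 h. An even spread over the window would give 42.4 bp. Of the 50820 nucleosomes with at least 10 read centers in every 3 h library, 42662 (83.9%) were wider in both H3 shutoff 3 h libraries than in wildtype 3 h, and 3429 (6.75%) were narrower in both. At 0 h, 62.1% were wider and 14.8% were narrower. Nucleosomes with an SD under 25 bp made up 3.82% and 4.34% in H3 shutoff 3 h, against 43.6% in wildtype 3 h. The loss of precision was larger where wildtype was precise. In the sharpest quintile by wildtype 0 h SD, the median was 33.1 and 32.3 bp in H3 shutoff 3 h, against 17.3 bp in wildtype 3 h, and in the fuzziest quintile it was 39.1 and 39.2 bp, against 35.5 bp. Beside gaps of 350 to 600 bp, the flanking nucleosome had a median SD of 33.9 and 33.9 bp in H3 shutoff 3 h, against 25.1 bp in wildtype 3 h. At 0 h it was 29.8 and 28.2 bp in H3 shutoff. Of those flanking nucleosomes 13.3% and 12.7% had an SD under 25 bp in H3 shutoff 3 h, against 49.7% in wildtype 3 h.

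Called centres also lay farther from the wildtype positions. The median distance from a wildtype 3 h dyad to the nearest dyad called in the H3 shutoff 3 h libraries was 23 and 17 bp. The background, from wildtype 3 h dyads to those called in wildtype 0 h, was 5 bp, and to those called in H3 shutoff 0 h it was 6 and 5 bp. A dyad within 10 bp was found for 35.6% and 42.4% of nucleosomes in H3 shutoff 3 h, against 63.4% in wildtype 0 h. The lists of the H3 shutoff 3 h libraries were longer, with 57493 and 55487 nucleosomes over 5 read centers, against 51281, and their median spacing was 191 and 196 bp, against 202 bp. The calling procedure closes 1 protected length around each call, and that length follows the extension length, so its part in these counts was not tested.

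Stretches without a called nucleosome in wildtype 3 h held more read centers in H3 shutoff cells. In the interior of 19475 gaps of 250 to 600 bp between neighbouring wildtype dyads, density was 0.794 and 0.804 times the genome mean in H3 shutoff 3 h, against 0.624 in wildtype 3 h. At 0 h it was 0.716 and 0.701 in H3 shutoff and 0.675 in wildtype. The 3 h difference, 0.175, was 0.053 with a margin of 100 bp from the dyads and 0.073 when identical intervals were counted once. A called dyad lay in 55.1% and 50.0% of these gaps in H3 shutoff 3 h, against 29.2% in wildtype 0 h. H3 shutoff 0 h had one in 40.7% and 32.1% of them. The narrower of these gaps leave little room for a further call, so gaps of 350 to 600 bp were examined too (712 gaps, a choice made after seeing the data). Their interior density was 0.292 and 0.285 in H3 shutoff 3 h, against 0.121 in wildtype 3 h. It was 0.249 and 0.154 in H3 shutoff 0 h, against 0.132 in wildtype 0 h, so replicate 1 was already close to its 3 h value at 0 h. A called dyad lay in 68.8% and 68.3% of these wide gaps in H3 shutoff 3 h and in 59.6% and 37.8% in H3 shutoff 0 h, against 30.8% in wildtype 0 h. Both H3 shutoff 3 h libraries had a called dyad in 406 of the 712 gaps (57.0%), and 243 of those gaps (34.1%) had none in wildtype 0 h. The gaps remained poorer in read centers than the genome mean in all 6 libraries.

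Arrays of evenly spaced nucleosomes were weaker, at nearly the same spacing. The autocorrelation of read-center density, which measures how well the pattern matches itself after a shift, had its first maximum at 174 and 173 bp in H3 shutoff 3 h, and within 2 bp of that in wildtype 3 h. Its height there was 0.210 and 0.273 in H3 shutoff 3 h, against 0.459 in wildtype 3 h, a difference of -0.217 ± 0.044 (SD, n = 2). It was 0.403 and 0.412 in H3 shutoff 0 h and 0.463 in wildtype 0 h. The second maximum was 0.065 and 0.094 in H3 shutoff 3 h, against 0.271 in wildtype 3 h, and the third was 0.041 and 0.056, against 0.164. In 6003 tiles of 2 kb, the autocorrelation was below wildtype 3 h in both H3 shutoff libraries in 4825 tiles (80.4%) and above it in both in 504 (8.4%). At 0 h, 58.4% were below and 13.2% above. Tiles over 0.5 made up 1.25% and 3.38% in H3 shutoff 3 h, against 28.2% in wildtype 3 h.

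**Figure D3:**
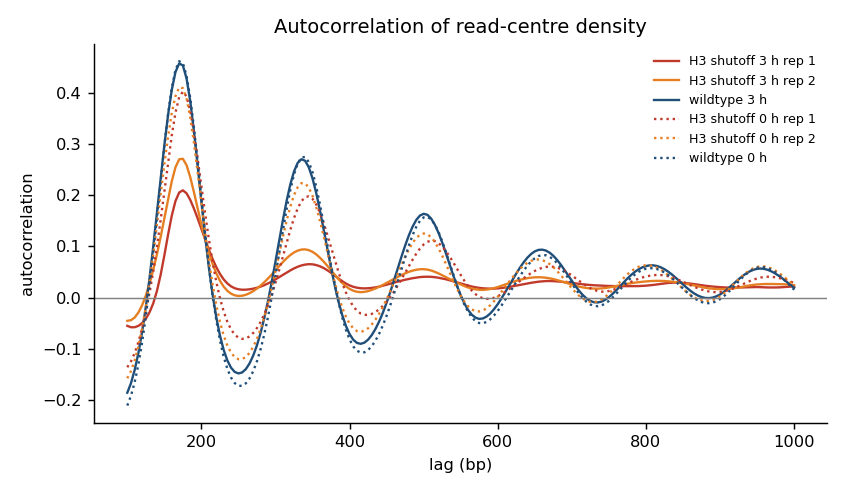
Autocorrelation of smoothed read-center density against the shift (lag) in bp, one line per library, solid for 3 h and dotted for 0 h. The first maximum is 0.210 and 0.273 in H3 shutoff 3 h and 0.459 in wildtype 3 h, and the later maxima of the H3 shutoff 3 h lines are nearly flat while those of wildtype 3 h remain visible.

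The pattern also died out sooner with distance from such gaps. Leading away from gaps of 250 to 600 bp, the amplitude (highest minus lowest mean density over the mean, in windows of about 1 nucleosome repeat) was 0.797 and 0.943 at the first nucleosome in H3 shutoff 3 h, against 2.69 in wildtype 3 h. At the third window it was 0.104 and 0.184 in H3 shutoff 3 h, against 1.10 in wildtype 3 h. At 0 h the third window had 0.644 and 0.755 in H3 shutoff and 1.00 in wildtype. At the sixth window it was 0.060 and 0.084 in H3 shutoff 3 h, against 0.280 in wildtype 3 h. Of these 19475 gaps, 712 were 350 to 600 bp wide. Leading away from those wide gaps, the first window had 1.325 and 1.464 in H3 shutoff 3 h, against 2.851 in wildtype 3 h. The contrast there was smaller. The third window had 0.126 and 0.212 in H3 shutoff 3 h, against 0.996 in wildtype 3 h.

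Gene starts showed the same change in outline. The 1999 transcribed regions used lie on chromosomes 1, 10 to 13 and part of 14. The +1 peak reached 1.28 and 1.29 times the genome mean in H3 shutoff 3 h, against 2.20 in wildtype 3 h. It lay 52 and 47 bp after the start in H3 shutoff 3 h, against 37 bp in wildtype 3 h. The lowest density before the start was 0.720 and 0.732 in H3 shutoff 3 h, against 0.554 in wildtype 3 h. At 0 h that low point was 0.831 and 0.527 in H3 shutoff and 0.508 in wildtype, so the 0 h replicates did not agree on it, and the strain difference before the start at 3 h lay inside the spread between them.

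**Figure D4:**
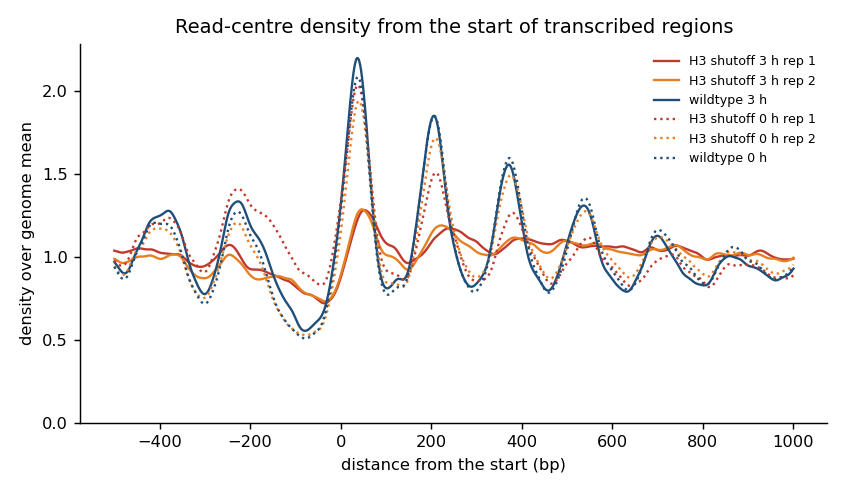
Mean read-center density (times the genome mean) from 500 bp before to 1000 bp after 1999 gene starts, one line per library, solid for 3 h and dotted for 0 h. The +1 peak is 1.28 and 1.29 in H3 shutoff 3 h and 2.20 in wildtype 3 h, and the lowest point before the start is 0.720 and 0.732 in H3 shutoff 3 h and 0.554 in wildtype 3 h.

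The decrease was largest at the first nucleosomes of genes and faded along them. The +1 nucleosome had a median of 51 and 50 read centers in H3 shutoff 3 h, against 78 in wildtype 3 h (1847 genes, median log2 ratio -0.70 and -0.69). The +2 nucleosome had 52 and 52, against 76 (-0.61 and -0.60). The +3 nucleosome had 51 and 51, against 64 (-0.40 and -0.37), the +4 had 48 and 49, against 52 (-0.20 and -0.16), and the +6 had 48 and 49, against 48 (-0.11 and -0.08). In H3 shutoff 3 h the first 6 nucleosomes were thus nearly level, whereas in wildtype 3 h they declined from start to body. The binomial class of nucleosomes lower in both held 13.8% of +1 nucleosomes, 12.5% of +2, 7.64% of +3 and 3.26% of +6, against 6.06% of all nucleosomes compared. Calls in this class rise with depth, and +1 nucleosomes were fuller in wildtype 3 h than +6 nucleosomes. The part that depth plays in these shares was not tested. At +1 the median SD was 34.2 and 34.1 bp in H3 shutoff 3 h, against 20.2 bp in wildtype 3 h. An SD under 25 bp was found for 6.6% and 6.5% of +1 nucleosomes in H3 shutoff 3 h, against 73.3% in wildtype 3 h. At 0 h the median log2 ratio to wildtype 0 h was -0.08 and -0.09 at +1, -0.31 and -0.10 at +2, -0.36 and -0.09 at +3, -0.29 and -0.06 at +4 and -0.18 and -0.04 at +6. Replicate 1 was therefore about as low at 0 h as at 3 h at +3, and lower at 0 h than at 3 h at +4 and +6. The nucleosome before the start (-1) had 47 and 44 read centers in H3 shutoff 3 h, against 59 in wildtype 3 h.

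Genes of ribosomal proteins, the structural parts of the ribosome and among the most transcribed genes of growing yeast, went the other way. The table held 43 of them. Their +2 nucleosome had a median of 42 and 41 read centers in H3 shutoff 3 h, against 22 in wildtype 3 h, and 35 of 43 were above wildtype 3 h in both (15.2% of +2 nucleosomes over all genes). The 0 h medians were 24 and 30 in H3 shutoff and 24 in wildtype. Their +3 nucleosome had 52 and 41 in H3 shutoff 3 h, against 20 in wildtype 3 h, a median log2 ratio of 1.38 and 1.13, and 39 of 40 were above in both (24.5% over all genes). The 0 h medians were 22.5 and 29.5 in H3 shutoff and 26 in wildtype, so the groups separated at 3 h only in these medians. At +1, the medians were 44 and 37 in H3 shutoff 3 h, against 30 in wildtype 3 h, with 20 of 43 above in both and 12 below in both. Over all genes 11.3% of +1 nucleosomes were above in both and 77.8% were below in both. The wildtype 0 h medians of 24 and 26 at +2 and +3 are near that of the second decile of all nucleosomes (27). Nucleosomes of that decile were above wildtype 3 h too, with a median log2 ratio of 0.26 and 0.21. At +2 of ribosomal protein genes it was 1.0 and 0.84. Other genes with nucleosomes of like depth were not compared.

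**Figure D5:**
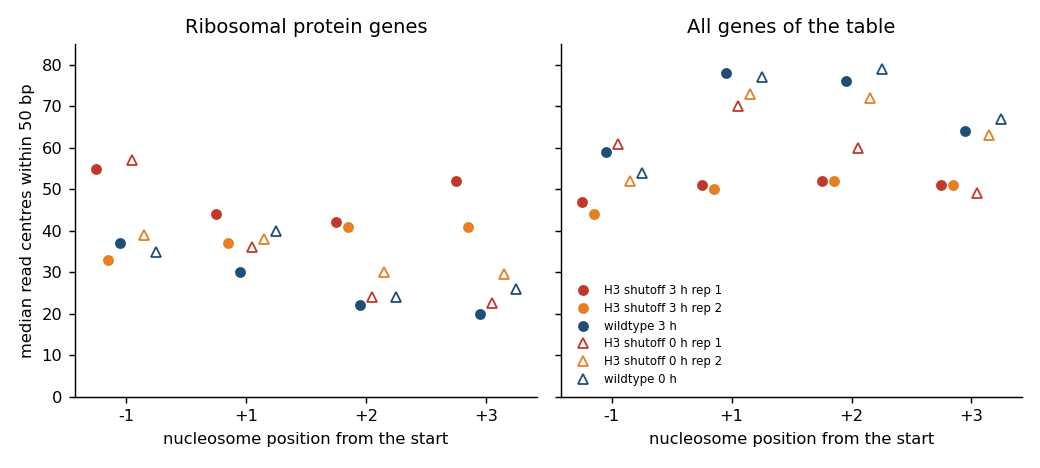
Median read centers within 50 bp at nucleosomes -1 to +3, one point per library (filled circles 3 h, open triangles 0 h), for ribosomal protein genes (left) and all genes of the table (right). At +3 of ribosomal protein genes the H3 shutoff 3 h points are at 52 and 41 and the wildtype 3 h point at 20, whereas over all genes they are at 51 and 51 and at 64.

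By edgeR with TMM scaling, 24 of 43 +2 nucleosomes and 36 of 40 +3 nucleosomes of ribosomal protein genes passed as higher and 0 as lower, against 7.05% and 11.1% higher over all genes. With library totals and tied sites left out, 12 and 23 passed as higher and 0 as lower. A fit of all 6 libraries called 6 and 8 of them, distinct intervals gave 1 and 2, and DESeq2 gave 0 and 0, so the direction held in each of these fits that made calls and the number did not. The third nucleosome of RPS18B, which encodes a protein of the small subunit, held 48 and 37 read centers in H3 shutoff 3 h, against 9 in wildtype 3 h, and the second nucleosome of RPL37A held 42 and 40, against 9. At 0 h the nucleosome of RPL37A held 25 and 33 in H3 shutoff and 34 in wildtype, so there it was wildtype 3 h that stood farthest apart. Values below wildtype were few. The third nucleosome of RPL6A had 63 and 29 read centers in H3 shutoff 3 h, against 43 in wildtype 3 h, and the replicates fell on either side of it. The second nucleosome of RPS22A had 63 and 57, against 68. Many ribosomal protein genes have a near-identical second copy, between which aligned reads could be split, so single genes of this group are uncertain.

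Genes that glucose represses, which serve growth on other carbon sources, were below wildtype at +1 about as often as genes in general. Of 11 such genes, 9 were below wildtype 3 h in both H3 shutoff libraries at +1 and 9 at +2, with median log2 ratios of -0.74 and -0.94 at +1 and -1.13 and -1.08 at +2. Over all genes 77.8% of +1 and 73.2% of +2 nucleosomes were below in both. By edgeR with TMM scaling, 3 passed as lower and 0 as higher at +1, and 5 as lower and 1 as higher at +2, against 18.6% lower and 3.84% higher at +1 and 17.3% lower and 7.05% higher at +2 over all genes. A fit of all 6 libraries called 1 lower at +1 and 2 lower at +2, and distinct intervals and DESeq2 called 0 at both. The fall over all genes at these positions was -0.70 and -0.69 at +1 and -0.61 and -0.60 at +2. The +1 nucleosome of IDP2, a cytosolic isocitrate dehydrogenase, held 36 and 31 read centers in H3 shutoff 3 h, against 141 in wildtype 3 h (edgeR adjusted p = 0.000174). It had 87 and 87 in H3 shutoff 0 h and 110 in wildtype 0 h. The +2 nucleosome of JEN1, the lactate permease, had a mean log2 ratio of -1.47 ± 0.15 (SD, n = 2), and that of FOX2, an enzyme of fatty acid oxidation, held 80 and 107, against 227. FBP1, the gluconeogenic fructose-1,6-bisphosphatase, was the gene that passed as higher at +2, with 55 and 47 in H3 shutoff 3 h, against 25 in wildtype 3 h.

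Genes of glycolysis and fermentation were divided. At +1 of CDC19, the pyruvate kinase, 76 and 40 read centers were found in H3 shutoff 3 h, against 21 in wildtype 3 h. At +2 of PDC1, the main pyruvate decarboxylase, 69 and 60 were found, against 32. At +1 of TDH1, a glyceraldehyde-3-phosphate dehydrogenase, H3 shutoff 3 h had 88 and 80, against 271 in wildtype 3 h. At +2 of PDC5, the minor pyruvate decarboxylase, it had 64 and 68, against 191. By edgeR with TMM scaling, 2 of 8 were lower and 2 higher at +1, and 1 lower and 3 higher at +2, beside the shares over all genes given above. A fit of all 6 libraries called 1 lower and 1 higher at +1 and 1 lower and 0 higher at +2. Distinct intervals called 0, and DESeq2 called 1 lower at +1 and 0 at +2. TDH1 and PDC5 have relatives of similar sequence, between which some aligned reads could be split, so their counts are uncertain.

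Chaperone and heat shock genes had a median log2 ratio of -0.88 and -1.0 at +1, and 4 of 9 passed as lower there by edgeR with TMM scaling, with 0 higher, against 18.6% lower over all genes. A fit of all 6 libraries called 2 of them, and distinct intervals and DESeq2 called 0. The list was not lower throughout. Its median log2 ratio was -0.13 and -0.40 at +2, against -0.61 and -0.60 over all genes. At +3 it was 0.12 and -0.32, against -0.40 and -0.37 over all genes. At +1 of CPR6, a cyclophilin that works with Hsp90, 27 and 23 read centers were found in H3 shutoff 3 h, against 96 in wildtype 3 h. At +1 of HSP60, the mitochondrial chaperonin, 36 and 62 were found, against 162. At +2 of SSC1, the mitochondrial Hsp70, the order was reversed, with 58 and 39 in H3 shutoff 3 h, against 21 in wildtype 3 h. That nucleosome held 44 and 65 in H3 shutoff 0 h and 79 in wildtype 0 h, so it was wildtype 3 h that stood apart.

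The shorter lists held few calls. Of 2 galactose genes with a +2 nucleosome, GAL2, the galactose permease, held 59 and 44 read centers in H3 shutoff 3 h, against 136 in wildtype 3 h, and passed as lower, while GAL80, the repressor of the pathway, did not pass. Of 3 hexose transporter genes, which include GAL2, 2 passed as lower at +2 and 0 as higher (17.3% and 7.05% over all genes). Of 3 phosphate genes, 0 passed at +1 or +2 and 1 passed as higher at +3 (11.1% over all genes). These calls are by edgeR with TMM scaling. With all 6 libraries, with distinct intervals and with DESeq2, 0 galactose or hexose transporter genes passed at +2 and 0 phosphate genes at +3. Of 6 subtelomeric genes of the COS, PAU and FLO families, 6 were below wildtype 3 h in both libraries at +1 and 6 at +2 (77.8% and 73.2% over all genes), and 2 passed as lower at +2 (17.3% over all genes). With all 6 libraries 1 passed there, with distinct intervals 0 and with DESeq2 1. At +2 of COS1, 92 and 128 read centers were found in H3 shutoff 3 h, against 322 in wildtype 3 h. Members of these families are near-identical, so their counts are uncertain.

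Whole promoters, counted from 300 bp before each start to the start with library totals, went both ways. The median log2 ratio to wildtype 3 h was 0.13 and 0.06 over all promoters, and the mean of both ratios had a 10th percentile of -0.66 and a 90th of 1.03. Of 1998 promoters, 697 (34.9%) were below wildtype 3 h in both H3 shutoff libraries and 927 (46.4%) were above it in both. By edgeR's quasi-likelihood test with Benjamini-Hochberg adjustment 0 promoters passed (0.0%, smallest adjusted p = 0.143), although 257 lower (12.9%) and 290 higher ones (14.5%) had an unadjusted p under 0.05. TMM over the promoters gave 219 lower and 105 higher, DESeq2 gave 69 lower and 0 higher, and leaving out 40 promoters with equal counts in both H3 shutoff libraries gave 195 lower and 186 higher. Leaving out H3 shutoff replicate 1 or replicate 2 gave 0.

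With no promoter past the threshold, those with the largest ratio in both libraries were named by the ratio alone. The promoter of BOL3, which encodes a mitochondrial protein of iron-sulfur cluster assembly, held 202 and 215 read centers in H3 shutoff 3 h, against 661 in wildtype 3 h. Its 0 h values were 376 and 286 in H3 shutoff and 363 in wildtype. The promoter of GIP4, which encodes a protein that binds the phosphatase Glc7, held 170 and 181, against 464. That of SYN8, a SNARE of endosomes, held 182 and 188, against 478, and that of PEP8, a retromer subunit, held 190 and 196, against 472. DPA10, with 63 and 98, against 249, and VAN1, a mannosyltransferase gene, with 103 and 143, against 338, were lower too. The promoter of JEN1 had a mean log2 ratio to wildtype 3 h of -1.31 ± 0.09 (SD, n = 2), so at JEN1 the promoter and the +2 and +3 nucleosomes were all below wildtype. Among promoters above wildtype, that of KRE1, a gene of cell wall glucan assembly, held 58 and 61 in H3 shutoff 3 h, against 3 in wildtype 3 h. It held 34 and 5 in H3 shutoff 0 h and 5 in wildtype 0 h. The promoter of PGA3 held 36 and 36 in H3 shutoff 3 h, against 4 in wildtype 3 h, with 25 and 3 in H3 shutoff 0 h. At both, replicate 1 was already above wildtype at 0 h and replicate 2 was not. GYL1, YLR399W-A, VNX1, YLR339C, CTK3 and GMC2 had 43 to 168 read centers in H3 shutoff 3 h, against 8 to 27 in wildtype 3 h. Replicate 1 was already above wildtype at 0 h at GYL1 (64 and 10 in H3 shutoff 0 h, against 4 in wildtype 0 h) and at CTK3 (42 and 12, against 10). VNX1 and KRE1 are neighbours, so their promoters may share reads.

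Promoters of ribosomal protein genes were above wildtype 3 h in both H3 shutoff libraries for 38 of 43 genes (46.4% over all promoters), with a median log2 ratio of 1.03 and 0.46. At 0 h their median log2 ratio to wildtype was 0.95 and 0.07. For replicate 1, the library that stood apart in promoters at 0 h, the 3 h ratio was therefore close to its own 0 h ratio, and the part of that earlier difference in the 3 h values was not tested.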

How the data were processed

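The 6 single-end MNase-seq libraries were grouped by strain and time from their titles. Members and gene lists were chosen with earlier results of these data known. According to the methods and the submitters' processing notes, the authors aligned reads to sacCer1 with Bowtie 0.12.6, lengthened each to its library's mean fragment size, left out the ribosomal DNA and sampled the same number of reads from every library. The deposited interval files hold 1 extended read per line, without strand. The deposited nucleosome lists give counts of read centers per nucleosome, not normalized, and the SD of read centers as a score in bp. The recount within 50 bp was identical for at least 99.9964% of listed nucleosomes in every library. A conditional position value was not used, and 0 columns of other samples were found. Paired-end and RNA libraries were not analysed here.

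Read centers were counted with Python 3.11.15, NumPy 2.4.6, pandas 2.3.3 and SciPy 1.17.1, and plotted with matplotlib 3.10.9. Counts with a mean of at least 10 were tested in R 4.3.3 with edgeR 4.0.16 (quasi-likelihood test, Benjamini-Hochberg adjustment, adjusted p under 0.05) and, as an alternative, DESeq2 1.42.0. Binomial classes used Bonferroni correction over the nucleosomes of a pair. Density was smoothed with a Gaussian of SD 10 bp cut at 3 SD, and limited at its 99th percentile for the autocorrelation, which in tiles was read at the wildtype repeat length. Tests were checked on simulated data. P-values measure only the spread between these libraries, and intervals repeated by PCR are not independent molecules.

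Gene starts came from the part of the study's sacCer1 gene table that was given (1999 genes, names and positions only), of which 1813 (90.7%) matched a RefSeq name. The +1 nucleosome was the first dyad from 20 bp before to 200 bp after the start. Named were the 12 lower and 12 higher nucleosomes with the largest smaller-of-both log2 ratio among those of the same binomial class in both pairs, at most 1 within 2 kb, the 8 lower and 8 higher promoters by the same measure, and genes of the lists. A rule for sites without reads in the H3 shutoff strain (at least 20 read centers in wildtype 3 h, at most 2 in each H3 shutoff library) found 0 nucleosomes. The deleted gene HHT1 was not looked up, so the strain label was not checked by it.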

Additional observations from a re-analysis of the deposited data

Results flagged for a closer look

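Of 102 promoters named or listed, 14 had one sign in both H3 shutoff libraries at 3 h and the opposite sign in both at 0 h, as did 65 of the 332 nucleosomes -1 to +3 of listed genes and 6 medians of gene lists. None of these differences between times was tested for the lists. The edgeR test of the difference at single promoters called 0 of 1997 (smallest adjusted p = 0.999, 93 at an unadjusted p under 0.05), and 0 with each culture as a block (67 at an unadjusted p under 0.05). The promoter of DAN1, a cell wall mannoprotein gene used without oxygen, had a mean log2 ratio of -1.50 at 3 h, with 143 and 194 read centers in H3 shutoff 3 h, against 473 in wildtype 3 h, and 423 and 261 in H3 shutoff 0 h, against 227 in wildtype 0 h. Lower at 3 h and higher at 0 h were also the promoters of PAU23 (mean log2 ratio at 3 h -0.95), PDC5 (-0.87), IDP2 (-0.79), HXT2 (-0.78), VTC4 (-0.67), FLO1 (-0.62), HXT9 (-0.44), PGM2 (-0.30), CPR7 (-0.30), RPS10B (-0.30) and DDR48 (-0.23). Higher at 3 h and lower at 0 h were those of RPS21B (1.31) and RPL6A (1.28).

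Promoters of the subtelomeric COS, PAU and FLO genes had a median log2 ratio of -0.385 at 3 h (7 genes, mean of both libraries), against 0.14 and 0.07 at 0 h, and their +3 nucleosomes had -0.485 (5 genes), against 0.14 and 0.21 at 0 h. The +1 nucleosomes of chaperone and heat shock genes had -0.94 at 3 h (9 genes), against 0.10 and 0.10 at 0 h. The +3 nucleosomes of glycolysis and fermentation genes had 0.24 at 3 h (8 genes), against -0.55 and -0.06 at 0 h. The -1 nucleosomes of phosphate genes had -0.67 at 3 h (3 genes), against 0.57 and 0.07 at 0 h, and those of galactose genes had -0.555 at 3 h (2 genes), against 0.53 and 0.03 at 0 h.

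Among the nucleosomes named one by one, the mean log2 ratio at 3 h was -2.51 at chr4:1075080-1075254, -2.35 at chr5:291726-291900 and -1.29 at +2 of FOX2, each above wildtype at 0 h in both replicates. It was 1.14 at +2 of SSC1 and 2.07 at +2 of RPL37A, both below wildtype at 0 h in both replicates.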

How the results depend on the processing

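No paired analysis was possible because the H3 shutoff and wildtype groups at 3 h share fewer than 2 replicate numbers. For the strain difference at 3 h minus that at 0 h, a replicate block of the culture sampled at both times, chosen after seeing the data, called 1 nucleosome and 0 promoters, against 0 and 0 without it. Without H3 shutoff replicate 1 or 2, edgeR called 0 to 1 nucleosomes and 0 promoters, and 3874 to 5052 nucleosomes were lower and 214 to 431 higher by the binomial test, since a call then needed 1 library. Against 10751 calls over nucleosomes, edgeR called 0 with library totals, 2645 with all 6 libraries and 196 (6 lower, 190 higher) with distinct intervals, and DESeq2 called 288. Against 0 promoters, 324 were called with TMM over the promoters, 69 by DESeq2, 83 with distinct intervals and 381 with tied promoters left out (chosen after seeing the data). Of the nucleosomes lower and higher in both by the binomial test (3110 and 98), TMM-scaled totals gave 940 and 413, 73 bp windows 1758 and 276, and distinct intervals 0 and 0, while 35 bp windows gave 53 higher and the wildtype 0 h list 170 higher. The median log2 ratio was -0.30 with 5 reads added, -0.089 with 73 bp and -0.29 on the wildtype 0 h list. The difference in the share of read centers at dyads was -9.98 points with 73 bp, -17.4 on the wildtype 0 h list and -12.4 with distinct intervals. That in SD was 7.13 bp with 60 bp windows, 12.7 with 85 bp, 10.3 with at least 30 read centers, 9.85 on the wildtype 0 h list and 7.73 with distinct intervals. That in gap density, 0.175, was 0.053 with a margin of 100 bp, 0.135 in gaps of 300 to 600 bp, 0.152 on the wildtype 0 h list, 0.073 with distinct intervals and, chosen after seeing the data, 0.168 in gaps of 350 to 600 bp. That in gaps with a called dyad, 23.3 points over wildtype 0 h, was 19.0 with more than 30 read centers and 37.8 in gaps of 350 to 600 bp. That in autocorrelation was -0.170 without an upper limit, and that in amplitude at the third window, -0.953, was -0.650 with distinct intervals. No share of read centers or difference above changed direction, nor did the median log2 ratio of counts. The median log2 change of the edgeR fit did depend on scaling. It was 0.02 with TMM, which sets the bulk of nucleosomes to no change, and -0.32 with library totals. The causes were not tested. The balance of edgeR calls did change. Over nucleosomes it was 4820 lower and 5931 higher in the main fit, but 1412 lower and 1233 higher with all 6 libraries. Over promoters it was 219 lower and 105 higher with TMM, but 16 lower and 67 higher with distinct intervals. The 1 wildtype library limits every comparison.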
